A study of Mus musculus with 2 samples.

Results

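The Krüppel-like factors (KLFs) are DNA-binding proteins whose zinc fingers at the C-terminal end recognise GC-rich and CACCC sequences, the same kind of site that Sp proteins bind. They differ in the rest of the protein, which in some members recruits activating acetyltransferases and in others the corepressors CtBP or Sin3. Several are switched on within minutes by stimuli, glucocorticoids or TGF-beta, and in islets members of the family are known as regulators of insulin gene promoters. The 10 genes described here, Klf2, Klf3, Klf4, Klf6, Klf7, Klf9, Klf10, Klf11, Klf13 and Klf15, were taken by gene name from a count table of 54532 genes, which holds 17 KLF genes in all. All 10 passed a minimum of 10 reads over both libraries.

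Pancreatic islets, the hormone-secreting clusters of the pancreas, came from male C57BL/6 mice aged 10 to 12 weeks of genotype wild type or Brsk2 transgene, the latter built to over-express this AMPK-related kinase. Both genotypes had drunk doxycycline, an inducer of conditional transgenes, for 4 days at 8 to 10 weeks of age, so the drug is shared by the groups. Each genotype had 1 library made from total RNA, which leaves the spread between animals unmeasured and every difference without a replicate check. The promoter of the transgene and the number of mice behind each library are recorded as not given in the sources used here, and the title of the transgenic library names a line.

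The wild-type library held 20389499 reads and the transgenic library 16832312. Levels are given as CPM, read counts scaled to a common library size, and each ratio is transgenic over wild type with its 95% interval for counting error in square brackets. Calls of higher or lower needed a ratio past 1.5-fold and an interval that excluded 1. Brsk2 itself had 732 reads in the wild-type and 1609 in the transgenic library, a ratio of 2.59 [2.37, 2.83]. Of the 14 beta cell markers none was at 0 in either library, and together they held 25.3% of the wild-type reads and 19.8% of the transgenic ones, so the labelled tissue is present. The 22 acinar markers, genes of the digestive-enzyme cells around islets, had a summed level of 12512 CPM in the wild type against 56470 CPM with the transgene, with 21 higher, 1 lower and none at 0. In bulk RNA, fewer cells of a type and less RNA per cell cannot be told apart.

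Klf7 and Klf9 were lower in the transgenic library, and the other 8 genes were not called. Of all 17709 measured genes, 5.89% were lower and 7.78% higher by the same rule, against 2 of 10 and none of 10 here. A total of 100 reads, which each of the 10 reached, was also reached by 12069 genes, of which 5.66% were lower and 5.67% higher. Among 363 of these that the table puts in the zinc finger class zf-C2H2, to which the KLF genes belong, 3.58% were lower and 6.61% higher. The whole interval lay below 1 for 4 of the 10 genes, Klf7, Klf9, Klf10 and Klf13, and above 1 for Klf6 alone. Those shares were 29.4% and 22.8% of the genes with at least 100 reads, and 22.1% and 19.4% of all measured genes, so intervals that exclude 1 are common at this depth. The median log2 ratio of the 10 genes was -0.24, with a range from -1.01 to 0.23, against 0.01 over all measured genes and 0.00 over the 363 zf-C2H2 genes. The ratio was below 1 in 8 of the 10, against 52.5% of genes with at least 100 reads. The 10 genes were chosen with earlier results of these data known, so these comparisons describe them and test nothing.

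**Figure D1:**
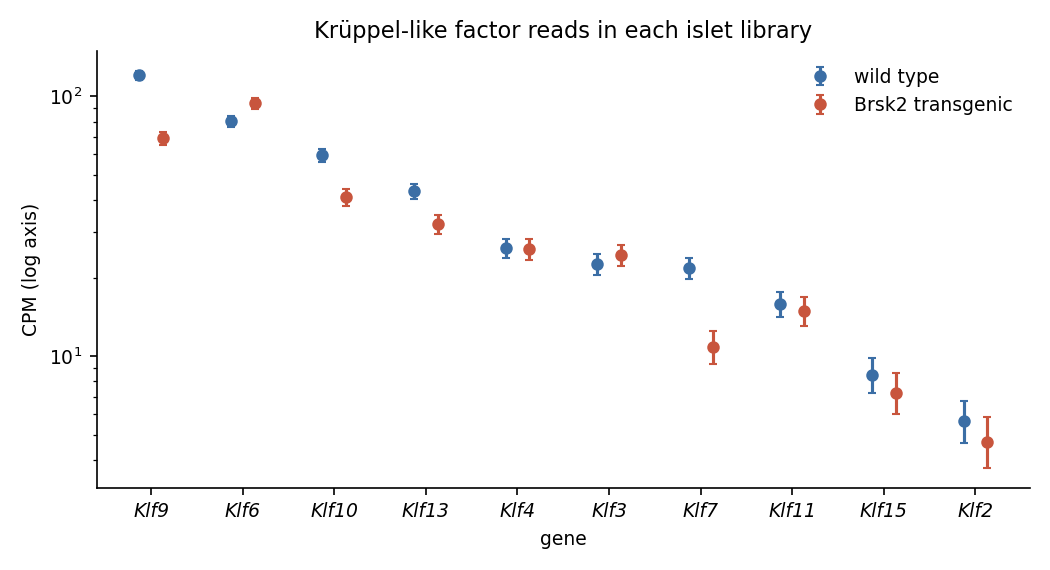
CPM (log axis) of the 10 KLF genes in the wild-type (blue) and Brsk2 transgenic (red) islet library, with exact 95% Poisson intervals for counting error. The points are far apart for Klf9 (121 and 69.2 CPM) and Klf7 (21.8 and 10.8 CPM) and lie side by side for Klf4.

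**Figure D2:**
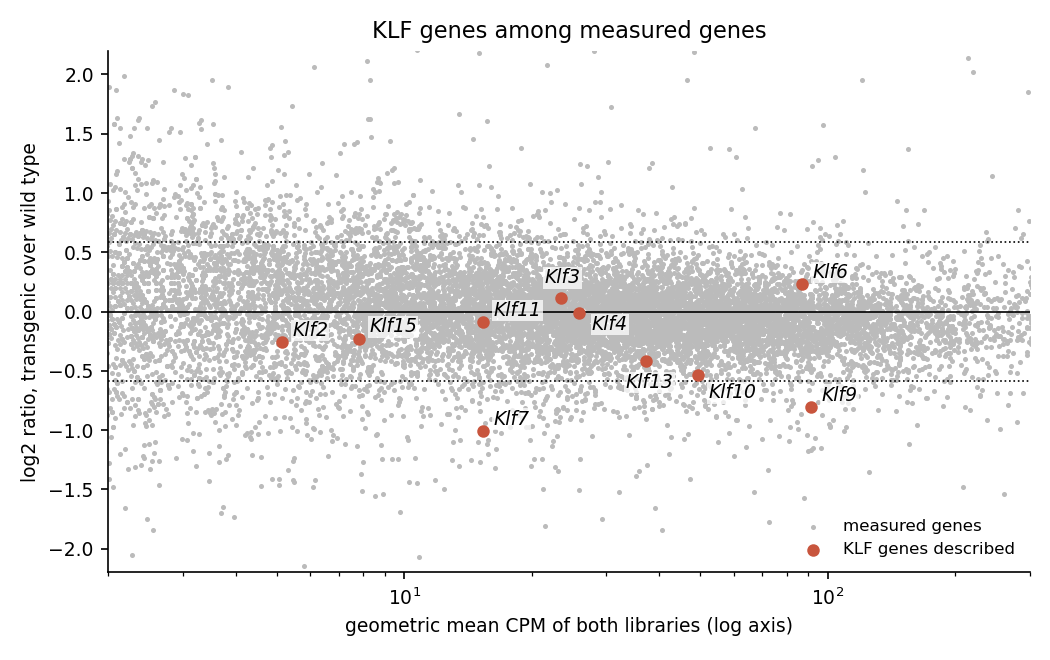
Log2 ratio of transgenic over wild type against the geometric mean CPM (log axis) of measured genes (grey), with the 10 KLF genes in red and dotted lines at 1.5-fold; the axes show the range around the KLF genes only. Klf7 (-1.01) and Klf9 (-0.80) lie below the lower line, Klf10 (-0.54) just above it, and Klf6 (0.23) is the highest of the family shown.

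Of the Sin3-binding genes among the 10, Klf9 was called lower, Klf10 and Klf13 were below 1 beyond counting error, and Klf11 was not. Klf16, a Sin3-binding gene outside the 10, had a ratio of 1.04 [0.903, 1.20]. Klf9, a gene induced by glucocorticoids and thyroid hormone that acts on cell growth and daily rhythms, lies on chromosome 19 from 23141226 to 23166911 on the plus strand (ENSMUSG00000033863; positions as listed, which match GRCm38). The wild-type library held 2429 of its reads (121 CPM) and the transgenic library 1180 (69.2 CPM). The ratio was 0.573 [0.534, 0.615], and 6.25% of measured genes had a lower one. Klf9 has 2 exons in its annotated transcripts, and the listed end falls 1223 bases short of the end in GENCODE M21, so reads in the last stretch of its 3' end may not have been counted in either library.

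Klf13, the closest relative of Klf9 and an activator of the chemokine gene Ccl5 in T cells, had 867 reads (43.1 CPM) and 551 reads (32.3 CPM), a ratio of 0.750 [0.672, 0.835]. It was below 1 beyond counting error but short of 1.5-fold. Within a library, where scaling plays no part, 2.80 reads of Klf9 were found per read of Klf13 in the wild type and 2.14 in the transgenic library, a ratio of these proportions of 0.764 [0.672, 0.870]. The difference between libraries was larger for Klf9 than for Klf13 beyond counting error. Klf13 (ENSMUSG00000052040, chromosome 7, 63886351 to 63938915, minus strand) overlaps E030018B13Rik and Gm27252 on the opposite strand, which had at most 10 reads in a library.

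Klf10 is an early gene of the TGF-beta response that also follows the circadian clock. It had 1195 wild-type reads (59.4 CPM) and 698 transgenic reads (40.9 CPM). Its ratio of 0.689 [0.627, 0.757] lay just outside the 1.5-fold rule, while its interval spanned the rule's limit. Klf11, its closest relative, binds insulin gene promoters and is studied in human diabetes. It had 319 reads (15.9 CPM) and 254 reads (14.9 CPM), a ratio of 0.939 [0.793, 1.11] that did not differ from 1 beyond counting error. Per read of Klf11 there were 3.75 reads of Klf10 in the wild type and 2.75 in the transgenic library, a ratio of 0.734 [0.604, 0.891]. Klf10 (ENSMUSG00000037465) lies on chromosome 15 from 38291463 to 38300706 on the minus strand, and Klf11 (ENSMUSG00000020653) on chromosome 12 from 24651274 to 24662789 on the plus strand.

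Among the members of the activator group, the ratios of Klf7 and its closest relative Klf6 lay on opposite sides of 1. Klf7, which mouse neurons need for the growth of axons, lies on chromosome 1 from 64029447 to 64122282 on the minus strand (ENSMUSG00000025959). It had 438 wild-type reads (21.8 CPM) and 185 transgenic reads (10.8 CPM), a ratio of 0.498 [0.417, 0.593]. This was the lowest ratio of the 10 and the only one of them past 2-fold, where 2.53% of measured genes were lower. The ratio was short of 2-fold with library totals (0.512) and after centring by GC content and length (0.518). The genes that overlap Klf7 in the table, Gm13748, Gm26649 and Mir6899, had at most 1 read in a library.

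Klf6, an early gene induced by tissue injury and growth factors, lies on chromosome 13 from 5861482 to 5870394 on the plus strand (ENSMUSG00000000078). It had 1613 reads (80.2 CPM) and 1604 reads (94.0 CPM), and its ratio of 1.17 [1.09, 1.26] was above 1 beyond counting error but was not called. Per read of Klf6 there were 0.272 reads of Klf7 in the wild type and 0.115 in the transgenic library. The ratio of these proportions was 0.425 [0.351, 0.513], the lowest of the 4 pairs of relatives compared.

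Klf2 and Klf4 are early genes with roles in blood vessel lining, and Klf4 is also known for epithelial differentiation and the reprogramming of cells to pluripotency. Klf4 (ENSMUSG00000003032, chromosome 4, 55527143 to 55532466, minus strand) had 524 reads (26.0 CPM) and 440 reads (25.8 CPM), a ratio of 0.990 [0.871, 1.13]. The values were the closest of any of the 10 genes. Klf2 (ENSMUSG00000055148, chromosome 8, 72319033 to 72321656, plus strand) was the gene with the fewest reads, 113 (5.62 CPM) without and 80 (4.69 CPM) with the transgene. Its ratio of 0.835 [0.619, 1.12] was not separable from 1 at this depth, and a 1.5-fold lower level lay within the interval. Per read of Klf4 there were 0.216 reads of Klf2 in the wild type and 0.182 in the transgenic library, a ratio of 0.843 [0.608, 1.17]. The 14 endothelial markers had a summed level of 379 CPM in the wild type against 336 CPM with the transgene, with none at 0. None of these markers was called, where 5.89% of all measured genes were lower and 7.78% higher.

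Klf3, the one CtBP-binding repressor of the 10, and Klf15 were not called either. Klf3 (ENSMUSG00000029178, chromosome 5, 64803388 to 64832901, plus strand) had 454 reads (22.6 CPM) and 417 reads (24.4 CPM), a ratio of 1.08 [0.946, 1.24]. Gm20033 on the opposite strand and C230096K16Rik on the same strand overlap Klf3 and had 33 to 40 reads in a library, and reads in the shared bases could belong to either gene. Klf15, a glucocorticoid-induced regulator of amino acid and glucose metabolism in liver and muscle, lies on chromosome 6 from 90462576 to 90475238 on the plus strand (ENSMUSG00000030087). It had 170 reads (8.45 CPM) and 123 reads (7.21 CPM), a ratio of 0.853 [0.671, 1.08] whose interval held 1.

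**Figure D3:**
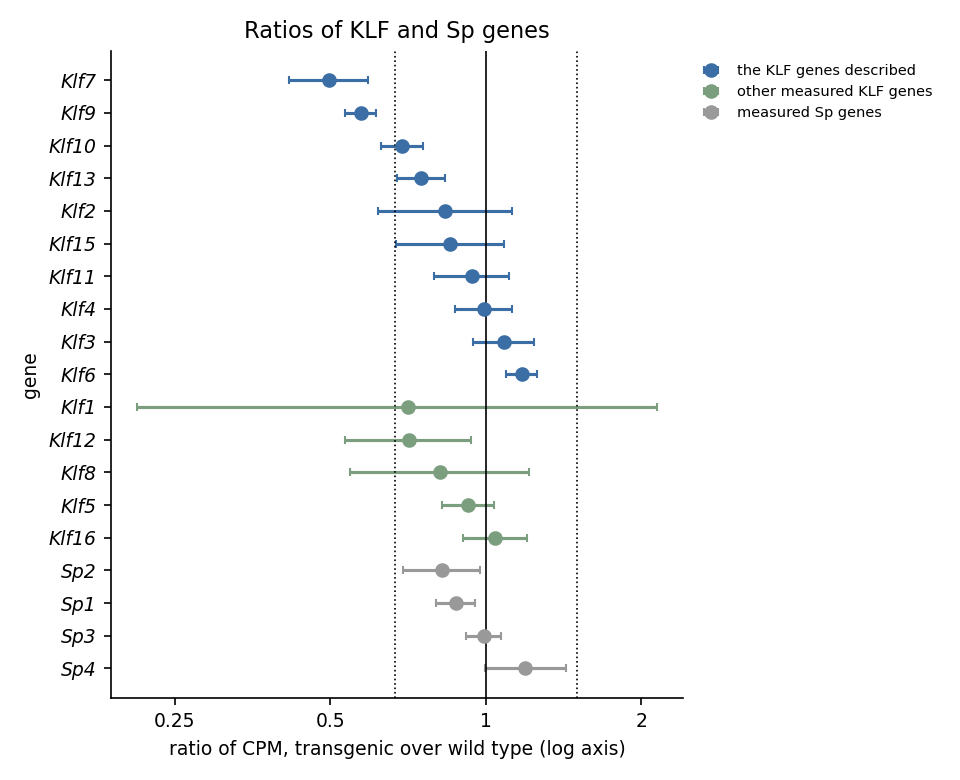
Ratio of CPM, transgenic over wild type (log axis), of the 10 KLF genes (blue), the other measured KLF genes (green) and the measured Sp genes (grey), with exact 95% intervals for counting error; dotted lines mark 1.5-fold. The whole intervals of Klf7 [0.417, 0.593] and Klf9 [0.534, 0.615] lie beyond the lower line.

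Of the 10 genes, Klf9 and Klf6 differed most between the libraries in their share of the summed level per kilobase. Per kilobase of listed gene length, Klf9 was the most abundant of the 10 in the wild type, at 37.0 CPM per kilobase (95% interval 35.5 to 38.5), ahead of Klf6 at 18.3 (17.4 to 19.2) and Klf10 at 14.2 (13.4 to 15.0). In the transgenic library Klf6, at 21.4 CPM per kilobase (20.4 to 22.5), and Klf9, at 21.2 (20.0 to 22.4), did not differ beyond counting error. Klf9 made up 37.7% of the summed CPM per kilobase of the 10 genes in the wild-type and 27.5% in the transgenic library, and Klf6 18.6% and 27.7%. The order depended on the length used: with the longest annotated transcript of each gene, a length chosen after the data were seen, Klf9 stood at 26.9 and Klf6 at 19.0 CPM per kilobase in the wild type, and at 15.4 and 22.3 in the transgenic library. The longest transcript of Klf9 (4486 bases) exceeds its listed length (3263 bases) by the 1223 bases in which reads may not have been counted. Its levels per kilobase of the longest transcript may therefore be too low, and these values do not settle the order of Klf9 and Klf6 in the transgenic library.

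Below these came Klf4, at 8.54 and 8.46 CPM per kilobase of listed length in the wild-type and transgenic library, and Klf13, at 5.72 and 4.29. Klf11, Klf2 and Klf15 were between 3.03 and 3.65 CPM per kilobase in the wild type, where each overlapped the next in the order, as Klf15 did Klf7 at 2.68. Klf3 was last in the wild type at 2.01, and Klf7 last in the transgenic library at 1.33. With the longest transcript Klf3 moved up to 4.32 CPM per kilobase in the wild type, because its listed length of 11243 bases sums many transcripts. Together the 10 genes had 404 CPM in the wild type against 324 CPM with the transgene, a ratio of 0.803 [0.776, 0.831]. Without Klf9 the ratio of the sum was 0.902 [0.867, 0.938].

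**Figure D4:**
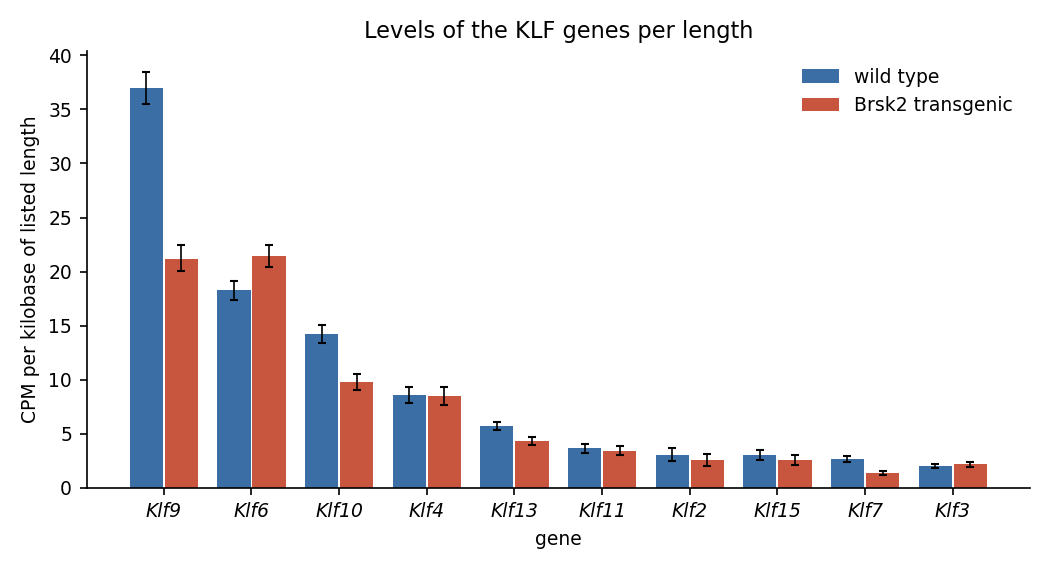
CPM per kilobase of listed gene length of the 10 KLF genes in the wild-type (blue) and transgenic (red) library, in wild-type order, with exact 95% Poisson intervals for counting error. Klf9 stands at 37.0 and 21.2 and Klf6 at 18.3 and 21.4.

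None of the 5 other measured KLF genes was called, and 4 of these 5 had a ratio below 1. Klf5, a factor of growing epithelia, had 659 and 516 reads, a ratio of 0.924 [0.821, 1.04]. Klf16 had 418 and 369 reads. The CtBP-binding repressors Klf12 and Klf8 had 138 and 83 reads and 65 and 45 reads. The ratio of Klf12 was 0.709 [0.534, 0.938], below 1 beyond counting error, and that of Klf8 was 0.817 [0.546, 1.21]. Klf1, the red blood cell factor, had 10 and 6 reads, a ratio of 0.708 [0.211, 2.15], and Klf14 and Klf17 had 0 reads in both libraries, which allows up to 0.149 CPM (wild type) and 0.176 CPM (transgenic).

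Of the related Sp genes, 4 were measured and none was called. Sp3, the most abundant, had a ratio of 0.991 [0.917, 1.07]. Sp1, the broadly acting founder of the family, was at 0.875 [0.803, 0.953], Sp2 at 0.823 [0.693, 0.977] and Sp4 at 1.19 [0.996, 1.43]. Sp5 had 0 and 2 reads, and Sp6, Sp7, Sp8 and Sp9 had none in either library.

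The promoters of the 2 genes called and of Klf6 are shown as the sequence before the RefSeq start (GRCm38.p6, 5′ to 3′ on the gene's strand), up to the first base that GENCODE M21 places in an exon of the gene. Capitals mark the boxes that KLF and Sp proteins recognise, CACCC and GGGCGG, on either strand, so that GGGTG and CCGCCC are capitals too; overlapping boxes run together.
Klf9, chr19:23140976-23141225, plus strand: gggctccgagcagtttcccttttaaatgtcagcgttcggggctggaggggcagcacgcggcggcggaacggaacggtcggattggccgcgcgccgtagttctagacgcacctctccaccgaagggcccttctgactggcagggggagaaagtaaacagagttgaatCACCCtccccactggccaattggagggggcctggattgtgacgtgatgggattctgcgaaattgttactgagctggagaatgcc
Klf7, chr1:64121492-64121639, minus strand: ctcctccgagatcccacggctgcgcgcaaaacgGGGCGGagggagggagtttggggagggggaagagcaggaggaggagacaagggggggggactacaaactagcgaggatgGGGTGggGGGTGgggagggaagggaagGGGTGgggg
Klf6, chr13:5861239-5861481, plus strand: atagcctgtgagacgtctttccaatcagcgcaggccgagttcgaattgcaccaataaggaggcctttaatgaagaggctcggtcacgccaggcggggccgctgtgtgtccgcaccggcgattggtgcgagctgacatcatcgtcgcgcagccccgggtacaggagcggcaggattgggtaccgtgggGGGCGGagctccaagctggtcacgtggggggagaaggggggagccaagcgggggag
The stretches of Klf9 and Klf6 end next to the start of the listed gene. That of Klf7 lies before the RefSeq start but inside the listed gene, which begins further upstream at 64122282. The stretch of Klf9 holds 1 CACCC box and no GGGCGG box, that of Klf7 holds 3 CACCC boxes and 1 GGGCGG box, and that of Klf6 a GGGCGG box alone. Over 32536 promoters of mouse genes, a CACCC box was found in 52.1% and a GGGCGG box in 33.0% of the 250 bases before the start. The stretches of Klf7 (148 bases) and Klf6 (243 bases) are shorter than this window. Their full 250 bases held the same numbers of these boxes.

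Of the 10 genes, 9 had a promoter in the RefSeq table, and 8 of these 9 held a GGGCGG box and 6 a CACCC box in the 250 bases. Klf9 was the one without a GGGCGG box. These 9 windows were GC-rich, at 59.2% to 78.4% GC against a median of 52.4% over all promoters, and no comparison with promoters of like GC content was made. The motifs of stimulus-responsive factors were searched in the same windows on both strands. The full cAMP response element TGACGTCA (in 1.56% of all promoters), the AP-1 site TGAGTCA (4.45%) and the CArG box of SRF (1.48%) were found in none of the 9. The core TGACG, which the full element also contains, was in 5 of the 9, among them Klf9, and in 17.9% of all promoters. No match says only that these letters are not in this window.

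The lists of genes around the family were described by the same rule. The cofactors and turnover enzymes of KLF proteins had 1 of 16 members lower and none higher, with a median log2 ratio of -0.05. The share lower, 6.25%, was near the 5.89% of all measured genes, of which 7.78% were higher. The lower one was Ctbp2, a corepressor that binds Klf3, Klf8 and Klf12, with 1557 and 819 reads (77.4 and 48.0 CPM) and a ratio of 0.620 [0.569, 0.676]. Its partner gene Ctbp1, the most abundant, was at 0.884 [0.835, 0.936]. Sin3a, the corepressor of the Klf9 and Klf10 group, was at 0.713 [0.653, 0.778], and the ubiquitin ligase Smurf1 at 0.844 [0.731, 0.975].

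Of 3 sets of known inducers of the family, none had more than 2 members called lower. By the same rule 5.89% of all measured genes were lower and 7.78% higher. In the ERK5 and MEF2 arm, which induces Klf2 and Klf4 in endothelium, none of 7 measured members was called, and the median was 0.01. Mef2a was at 1.26 [1.17, 1.35], Mef2d at 0.859 [0.809, 0.913] and Mapk7, the ERK5 kinase, at 0.887 [0.743, 1.06]. Among 10 genes of the glucocorticoid response, which includes Klf9 and Klf15 in many tissues, 2 were lower and 1 higher, with a median of -0.12. The lower ones were the clock gene Per1, with 2217 and 907 reads and a ratio of 0.483 [0.446, 0.522], and the phosphatase Dusp1, at 0.638 [0.586, 0.694]. Both are also induced by other stimuli. Errfi1, a brake on growth factor receptors, was at 0.679 [0.625, 0.737]. The higher one was Zbtb16, with 16 and 33 reads, at 2.43 [1.30, 4.73]. The receptor Nr3c1 was at 0.929 [0.871, 0.991]. The rest of this list is named after its values were seen. Fkbp5 was at 0.932 [0.864, 1.00], Tsc22d3 at 1.06 [0.959, 1.17] and Sgk1 at 0.915 [0.829, 1.01]. Cdkn1c was at 0.818 [0.541, 1.23] and Pdk4 at 1.38 [1.14, 1.68], above 1 beyond counting error but not called. A part of glucocorticoids in the KLF ratios was not tested.

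Of 14 genes of the TGF-beta response, which induces Klf10 and Klf11, only Smad4 was lower and no gene was higher. The share lower, 7.14%, was near the 5.89% of all measured genes, and the median log2 ratio was -0.03. Smad4, a shared signal transducer, had 2461 and 1317 reads and a ratio of 0.631 [0.590, 0.675]. The ligand Tgfb1 was at 0.705 [0.595, 0.835] and the corepressor Tgif1 at 1.49 [1.20, 1.86]. Of 14 genes reported as KLF targets in various tissues, 2 (14.3%) were lower and no gene was higher, with a median of -0.21. The lower ones were Ins1, at 0.476 [0.474, 0.478], and the epithelial cadherin Cdh1, at 0.646 [0.625, 0.666]. Ins2 was at 0.800 [0.799, 0.801], the endothelial nitric oxide synthase Nos3 at 0.690 [0.505, 0.936] and the beta cell factor Pdx1 at 1.05 [0.981, 1.13]. Ins1, Ins2 and Pdx1 are also beta cell markers, and Smad7 stands in both of these lists.

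Of 23 immediate early genes outside the family, 16 were called lower and Myc alone higher, with a median log2 ratio of -0.81. Over all measured genes, 5.89% were lower and 7.78% higher. The 6 early genes not called had ratios from 0.748 (Ier2) to 1.13 (Ier3). Arc, a regulator of synapses, had 1396 and 375 reads and a ratio of 0.317 [0.282, 0.355], Fosb was at 0.344 [0.329, 0.359], Nr4a1 at 0.349 [0.320, 0.380] and Jund, the most abundant, at 0.570 [0.552, 0.588]. The 4 KLF genes described above as early genes, Klf2, Klf4, Klf6 and Klf10, had ratios from 0.689 to 1.17 and none was called. This grouping followed no list set beforehand. It leaves out other inducible members of the family: Klf9 (0.573, called lower), Klf11 (0.939) and Klf15 (0.853). Whether early genes and KLF genes differ as groups was not tested.

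Many cell type markers also differed between the libraries, in a direction that depended on the list. By the same rule 5.89% of all measured genes were lower and 7.78% higher. The lists with only 1 marker called, of macrophages and of delta and gamma cells, are too short to set against these shares. Beta cell markers were lower in 8 of 14 cases and had a summed level of 256616 CPM in the wild type against 195454 CPM with the transgene, while 3 of 9 alpha cell markers were higher and none lower (22568 and 33985 CPM). Of 12 fibroblast and mural markers 6 were higher and 1 lower (111 and 149 CPM), and of 10 macrophage markers 8 were measured and 1 was higher (84.0 and 98.3 CPM). Of 13 lymphocyte markers 10 were measured, with 3 higher and 2 lower (73.3 and 143 CPM), and of 6 red blood cell markers 5 were measured and 4 were higher (10.5 and 20.9 CPM). Of 6 markers of delta and gamma cells 1 was higher (5557 and 8500 CPM), of 8 ductal markers 3 (407 and 453 CPM), and none of either list was lower. The part of these cell types in the KLF ratios was not tested. With scaling factors taken without hormone and acinar genes, Klf7 was at 0.498 and Klf9 at 0.573, the values given above. A scaling factor acts on all genes of a library alike, so these unchanged ratios say nothing about the part of cell types.

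The authors' deposited table of genes listed as different holds 108 genes, and no KLF or Sp gene is among them. The smallest absolute log2 fold change in the authors' deposited table was 1.57. Log2 ratios of the 10 genes here ran from -1.01 (Klf7) to 0.23 (Klf6). The authors' fold changes come from their own processing and the ratios here from CPM, so the measures are not the same. With 2 libraries each gene has 1 ratio, so no likeness of pattern between genes was computed.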

How the data were processed

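RNA was sequenced from 2 islet libraries, 1 wild type and 1 Brsk2 transgenic, grouped by the genotype label. The KLF genes and the gene lists were chosen with earlier results of these data known. The deposited count table gives whole read counts for 54532 gene IDs and a gene length, per the file headers. Aligner, counter and genome build are recorded as not given in the sources used here. GENCODE M21 (GRCm38) holds 54495 of the IDs, 98.3% of them at the same start and end. The authors' deposited table of different genes, with normalized counts (a signal), log2 fold changes and p-values, was used only for gene names and its smallest log2 fold change. The submitters' processing notes name DESeq2 1.10.1.

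The 17709 genes with 10 or more reads in the 2 libraries together were measured. Counts were scaled by TMM (edgeR 4.0.16, R 4.3.3) to CPM, so that 1 read equals 0.0497 CPM (wild type) or 0.0586 CPM (transgenic). Ratios carry exact 95% Clopper-Pearson intervals and levels exact Poisson intervals (SciPy 1.17.1), which cover counting error only, as PCR copies cannot be told from separate molecules. With 1 library each, groups were not tested. A gene at 0 was given the limit that 3 reads set. The rule for names took all KLF and Sp genes and, in each pathway list, up to 3 genes with the largest absolute log2 ratio plus the one with most reads, if a gene had 100 reads in all; other genes named were chosen after their values were seen.

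In counts simulated for this comparison with counting error alone and no spread between animals (17687 genes), the 1.5-fold rule called 40 of 40 genes planted at 0.5-fold, 19 of 40 planted at 1.5-fold and 188 of 17487 unchanged genes. Alternatives were DESeq2 1.42.0 size factors, library totals, TMM without hormone and acinar genes, centring by GC content and length of transcripts (10 bins each), other read minimums (1 and 50) and other fold rules; transcript lengths from GENCODE M21 were added after seeing the data. Figures used matplotlib 3.10.9.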

Additional observations from a re-analysis of the deposited data

How the results depend on the processing

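No paired analysis was possible because each group has 1 library. Across 3 other scalings and centring by transcript GC content and length, the ratio of Klf7 ran from 0.496 to 0.518 and that of Klf9 from 0.571 to 0.588, both called lower throughout, and no other of the 10 genes was called under them. All 10 ratios stayed inside their counting interval. The ratio of Klf4 crossed 1 with library totals and under centring (both 1.02). By the 2-fold rule 1 of the 10, Klf7, was lower, though not with library totals (0.512) or under centring (0.518), and 755 and 448 of all measured genes were higher and lower; with a rule that asks the interval bound to lie past 1.5-fold, 438 and 361 were, as fewer genes qualify by construction. With the longest transcript as the length, chosen after the data were seen, Klf9 over Klf6 in CPM per kilobase went from 2.03 to 1.42 in the wild type and from 0.990 to 0.693 in the transgenic library; the added bases of Klf9 are those in which reads may not have been counted, which would make the second value of each pair too low. Depth limits Klf1 most (16 reads in all) and, of the 10 genes, Klf2 and Klf15: the intervals of these genes and of Klf8 hold both no difference and ratios near 1.5-fold lower.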

Other observations

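Genes of higher transcript GC content had slightly lower ratios: the median log2 ratio was 0.08 in the lowest of 10 bins of transcript GC content and -0.05 in the highest. Klf7 (45.3% GC) and Klf9 (47.5%) lie in the lower part of that range, and Klf2 (61.6%) in its top bin. After centring by both GC content and transcript length, the log2 ratios were -0.95 for Klf7 and -0.80 for Klf9. The GC bin that holds Klf7 had a median log2 ratio of 0.03, so the smaller difference of Klf7 after centring came from the length step.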
